A study of Mus musculus with 6 samples.

Results

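Described here are 7 keratin genes, 4 of type II (Krt5, Krt7, Krt8 and Krt80) and 3 of type I (Krt14, Krt18 and Krt19), out of 28418 genes listed in the deposited tables. They were matched by gene identifier to symbols of the GENCODE M21 annotation, and 7 of 7 were found. The members were selected on their FPKM in these same 6 libraries, at both PFOS doses, so their levels and differences are given as a description, with no test. They were measured in 4T1 cells kept for 35 passages at 100 nM PFOS (3 libraries) or at 0 nM PFOS (3 libraries). 4T1 is an established mouse mammary carcinoma line, described by the submitters as triple negative, and PFOS, perfluorooctane sulfonate, is a persistent fluorinated surfactant. The question was how gene expression differs after long exposure to this dose. Poly(A) RNA was sequenced, and values are in FPKM (sequenced fragments relative to transcript length and to the mapped total of the library). FPKM is a level per length, and levels of different genes can be set side by side. The labels do not say whether libraries of a dose came from separate cultures; a p-value here covers the spread among libraries alone, and that spread may be technical.

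Keratins are the intermediate filament proteins of epithelial cells. A filament is built from pairs of 1 type I and 1 type II chain, and a chain without a partner is degraded. Krt8 and Krt18 encode the pair of simple and luminal epithelia, Krt7 and Krt19 are further simple epithelial keratins found in ducts, and Krt5 and Krt14 encode the pair of basal and myoepithelial cells. Krt80 is an epithelial keratin of less defined partners. Filaments are anchored at desmosomes through desmoplakin and at hemidesmosomes through plectin. In the mammary gland the luminal and basal pairs are standard lineage markers, and in carcinomas a loss of keratins beside vimentin is read as a mesenchymal shift.

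Members of the luminal pair and Krt7 lie on chromosome 15 and are shown first by the sequence upstream of their start sites, because these genes made up most of the keratin signal and differed in how far they stood apart between doses. The window of Krt5, which lies between them on the same chromosome and was nearly silent, is given for contrast. The sequences are from RefSeq on GRCm38.p6, are the 250 bases before the start site on the gene's strand, and have in capitals each match on either strand to 4 motifs. The TATA box was searched as TATAAA. The GC box, bound by Sp1, was searched as GGGCGG. The E-box, bound by Snai1 and Zeb1, was searched as CACCTG. The AP-1 site was searched as TGANTCA. Spans are chr15:102004343-102004592 (minus strand) for Krt8, chr15:102027966-102028215 (plus strand) for Krt18, chr15:101412153-101412402 (plus strand) for Krt7 and chr15:101712906-101713155 (minus strand) for Krt5.
Krt8: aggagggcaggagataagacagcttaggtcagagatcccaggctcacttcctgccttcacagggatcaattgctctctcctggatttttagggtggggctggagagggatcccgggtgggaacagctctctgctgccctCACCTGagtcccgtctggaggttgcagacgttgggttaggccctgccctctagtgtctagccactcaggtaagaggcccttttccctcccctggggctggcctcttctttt
Krt18: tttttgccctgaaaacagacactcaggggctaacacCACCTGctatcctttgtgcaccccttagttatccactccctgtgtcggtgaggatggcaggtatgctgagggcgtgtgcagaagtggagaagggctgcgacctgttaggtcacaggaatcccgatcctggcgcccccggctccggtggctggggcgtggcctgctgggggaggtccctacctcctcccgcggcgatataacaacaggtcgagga
Krt7: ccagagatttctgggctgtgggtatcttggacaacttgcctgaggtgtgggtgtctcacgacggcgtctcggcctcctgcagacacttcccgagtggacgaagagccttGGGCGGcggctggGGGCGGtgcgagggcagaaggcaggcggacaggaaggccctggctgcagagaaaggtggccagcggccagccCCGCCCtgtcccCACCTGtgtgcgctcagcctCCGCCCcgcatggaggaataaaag
Krt5: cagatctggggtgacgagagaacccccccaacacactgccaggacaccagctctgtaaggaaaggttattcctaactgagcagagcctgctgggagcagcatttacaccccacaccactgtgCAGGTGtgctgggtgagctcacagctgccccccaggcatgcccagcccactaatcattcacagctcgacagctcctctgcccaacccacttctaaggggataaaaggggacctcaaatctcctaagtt
Each of the 4 windows held 1 CACCTG, at positions -111 to -106 in Krt8, -214 to -209 in Krt18, -44 to -39 in Krt7 and -128 to -123 in Krt5, where it is on the other strand. Among all 32851 windows of the same length, 17.2% held this motif. The Krt7 window was the richest in G and C, at 66.0% against a median of 52.4% over all windows, and held 4 GC boxes, a motif found in 32.7% of windows. No match to TATAAA or TGANTCA lay in the 4 windows, where 12.4% and 6.7% of all windows held them. No match overlapped another. The motifs were chosen after the sequences were read, and a match is a description and not a binding site. Of the 7 genes, 5 had a window. The window of Krt14, 1518 bases inside the deposited gene, is not shown. That of Krt7 also starts from a site 1360 bases inside the deposited gene, which has 5 annotated transcripts.

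Before the results, 1 library needs mention. Replicate 3 at 100 nM stood apart from the other 5 on the first principal component (34.9% of the variance, score 19.4, others -9.57 to 0.06), and its 13 measured T and NK cell markers were highest there in 13 of 13. Their summed level was 30.2 FPKM in that library, against 1.12 and 1.43 FPKM in the other 100 nM libraries and 0.840 to 0.950 FPKM at 0 nM, and Cd3e, Cd3g, Cd8b1, Gzma and Nkg7 were listed at 0 in the other 5. Of 9 myeloid markers 6 were highest in that library, with sums of 152.7 to 302.3 FPKM at 100 nM and 154 to 193.4 FPKM at 0 nM. Of 8 fibroblast markers 3 were highest there, with sums of 6.37 to 9.09 FPKM at 100 nM and 6.09 to 6.33 FPKM at 0 nM. Over the 11741 genes tested with limma, 4.15% passed at a Benjamini-Hochberg adjusted p under 0.05, 1.69% higher and 2.46% lower at 100 nM, and 20.7% had an unadjusted p under 0.05. Of the 3 marker lists, 2, 8 and 2 genes were tested and 0 passed in limma (0, 0 and 1 at an unadjusted p under 0.05). The most abundant were Gzmb (0, 0 and 14.94 FPKM at 100 nM and 0, 0 and 0.05 FPKM at 0 nM) and Trac for T and NK cells, Lyz2 and Cd14 for myeloid cells, and Pdgfra and Col1a1 for fibroblasts. In bulk RNA, fewer cells of a type and less RNA per cell cannot be told apart. The epithelial label fits its markers, with Cdh1, E-cadherin, at 66.2 ± 1.59 FPKM at 100 nM and 54.1 ± 0.271 FPKM at 0 nM (SD, n = 3 each; difference 0.29 ± 0.02 SE, limma adjusted p = 0.00323). It was the 1 gene of 6 tested epithelial surface markers that passed in limma (2 at an unadjusted p under 0.05, both higher). Cldn3, a claudin, had 44.7 ± 1.001 FPKM at 100 nM and 43.9 ± 0.772 FPKM at 0 nM, and Epcam 31.7 ± 3.11 FPKM at 100 nM and 25.6 ± 0.47 FPKM at 0 nM (SD, n = 3 each). The groups of Epcam did not overlap, and its difference was 0.294 ± 0.065 (SE; limma adjusted p = 0.0606). Whether the T cell transcripts bear on keratin levels was not tested, and values without that library are given below.

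Keratin RNA in these cells was that of a simple epithelium. Krt8 and Krt18 ranked 126 and 131 of all genes by mean level, Krt19 and Krt7 followed at 1137 and 1433, and Krt80, Krt14 and Krt5 ranked 8047, 11649 and 25026. Krt8 and Krt18 together held 87.2% ± 0.0629 of the summed FPKM of the 7 genes at 100 nM and 88.6% ± 0.0844 at 0 nM (SD, n = 3 each). The order by level was Krt8, Krt18, Krt19, Krt7, Krt80, Krt14 and Krt5 in both groups. Neighbours in this order had separate ranges within each group, except Krt8 and Krt18 at 100 nM, whose libraries overlapped.

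Krt8, the type II chain of the luminal pair (ENSMUSG00000049382, chromosome 15, 101996698 to 102004482 in GRCm38), had 309.63, 310.04 and 289.03 FPKM in the libraries at 100 nM and 289.69, 288.74 and 290.64 FPKM at 0 nM. The groups overlapped, since replicate 3 at 100 nM lay at the level of the 0 nM libraries and the other 2 stood above them. Its difference, 100 nM minus 0 nM, was 0.06 ± 0.03 (SE) on the log2(FPKM + 1) scale, and 0.10 without replicate 3 at 100 nM. Krt18, its type I partner (ENSMUSG00000023043, chromosome 15, 102028180 to 102032027), had 295.54, 308.27 and 288.99 FPKM at 100 nM and 277.36, 278.09 and 276.46 FPKM at 0 nM. Every 100 nM library stood above every 0 nM library, by at least 10.9 FPKM, and the difference was 0.10 ± 0.03 (SE) on the same scale. Coefficients of variation were 3.97% for Krt8 and 3.29% for Krt18 at 100 nM, against 0.328% and 0.294% at 0 nM, where the libraries were close to identical. Beside genes within 2-fold of their level, their spread was not small: the residual SD was 0.041 for Krt8 and 0.033 for Krt18 on the log2 scale, where the median gene had 0.027.

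Krt7 and Krt19 stood further apart between the doses than the luminal pair. Krt7, a type II keratin of ducts (ENSMUSG00000023039, chromosome 15, 101411043 to 101430313), had 37.98, 39.05 and 36.48 FPKM at 100 nM and 29.61, 29.80 and 31.21 FPKM at 0 nM. The groups did not overlap and were 5.27 FPKM apart at their nearest. Mean levels were 37.8 ± 1.29 FPKM at 100 nM and 30.2 ± 0.874 FPKM at 0 nM (SD, n = 3 each), a ratio of 1.25 and a difference of 0.32 ± 0.03 (SE) on the log2(FPKM + 1) scale. Krt19, a type I keratin that lacks most of the tail domain (ENSMUSG00000020911, chromosome 11, 100140810 to 100146120), had 45.71, 46.68 and 42.91 FPKM at 100 nM and 38.12, 38.33 and 37.10 FPKM at 0 nM. Its groups did not overlap either, with replicate 3 at 100 nM the lowest of that group and still 4.58 FPKM above the highest 0 nM library. Mean levels were 45.1 ± 1.96 FPKM at 100 nM and 37.9 ± 0.658 FPKM at 0 nM (SD, n = 3 each), a ratio of 1.19 and a difference of 0.25 ± 0.04 (SE). Without replicate 3 at 100 nM the differences were 0.34 for Krt7 and 0.28 for Krt19.

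The remaining genes were low. Krt80 (ENSMUSG00000037185, chromosome 15, 101347444 to 101370162) had 4.44, 4.20 and 4.07 FPKM at 100 nM and 3.98, 4.06 and 4.39 FPKM at 0 nM. The groups overlapped, the difference was 0.03 ± 0.05 (SE), and without replicate 1 at 100 nM it was -0.002, so no direction is given. Krt14, the type I chain of basal cells (ENSMUSG00000045545, chromosome 11, 100203162 to 100207548), had 1.55, 1.2 and 1.24 FPKM at 100 nM and 0.70, 0.65 and 0.95 FPKM at 0 nM. Groups did not overlap, the nearest libraries were 0.25 FPKM apart, and the ratio of means was 1.73. The difference was 0.40 ± 0.10 (SE) with a pseudocount of 1 and 0.73 with 0.1. Krt14 passed the filter of a mean of 1 FPKM, at 1.05, through its 100 nM libraries. Krt5, the basal partner of Krt14 (ENSMUSG00000061527, chromosome 15, 101707070 to 101712898), was listed at 0 in every 100 nM library and at 0.03, 0 and 0 FPKM at 0 nM, and was not tested. Of the basal pair, the type I chain was thus low and the type II chain at or near 0.

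**Figure D1:**
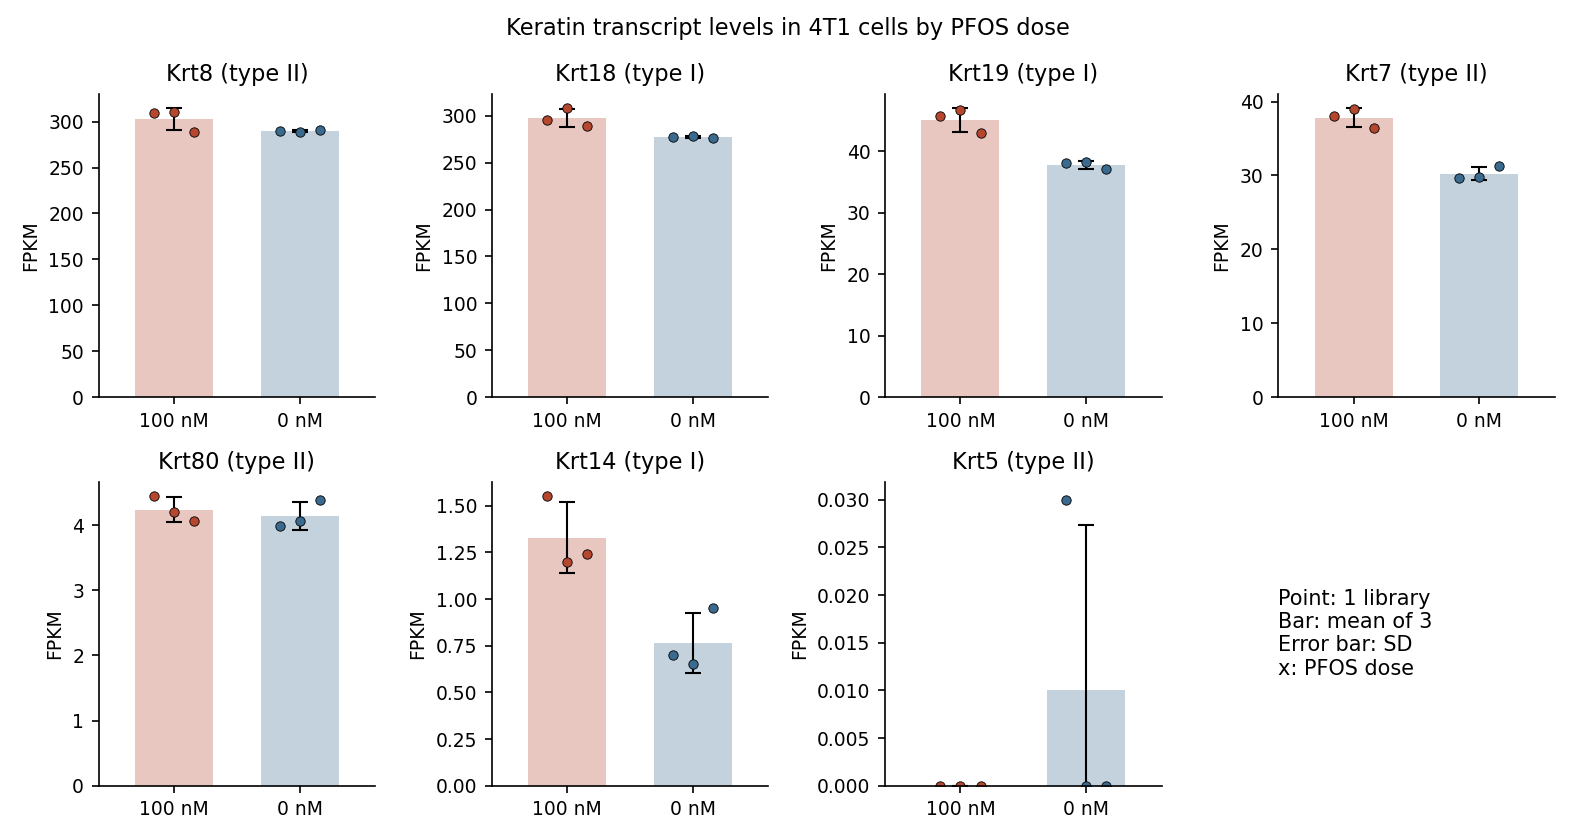
FPKM of the 7 keratin genes in each library, with 100 nM PFOS on the left and 0 nM on the right of each panel; bars are means of 3 libraries, error bars SD, and each panel has its own scale from 0. Krt7, Krt19, Krt18 and Krt14 have no overlap between the doses, while Krt8 and Krt80 overlap and Krt5 is at or near 0.

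Of the 6 keratins averaging 1 FPKM or more, 4 had groups that did not overlap and were higher at 100 nM. Among the 11741 genes averaging 1 FPKM or more, 13.7% did so in that direction. Krt14, 1 of the 4, passed this filter through its 100 nM libraries. As the list was made with these values known, nothing is read from this count.

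Total keratin RNA was slightly higher at 100 nM. The summed level of the 7 genes was 694.9, 709.4 and 662.7 FPKM at 100 nM and 639.5, 639.7 and 640.8 FPKM at 0 nM. All 3 libraries at 100 nM lay above the 0 nM libraries, which differed from each other by far less. The ratio of means was 1.08, or 0.11 on the log2 scale, and 0.13 without replicate 3 at 100 nM. Of the summed difference of 49.03 FPKM, Krt18 held 41.4%, Krt8 26.9%, Krt7 15.6% and Krt19 14.8%. Thus the abundant pair carried most of the added signal, and the less abundant Krt7 and Krt19 had the larger ratios.

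The balance of type II to type I keratin RNA was close to 1 throughout. Type II over type I was 1.03, 0.992 and 0.989 at 100 nM and 1.02, 1.02 and 1.04 at 0 nM, and Krt8 over Krt18 was 1.05, 1.01 and 1.000 at 100 nM and 1.04, 1.04 and 1.05 at 0 nM, with overlap between the doses for both ratios. The make-up within each type differed more. Krt7 over Krt8, the ratio of the type II chains, was 0.123, 0.126 and 0.126 at 100 nM and 0.102, 0.103 and 0.107 at 0 nM. Krt19 over Krt18, the ratio of the type I chains, was 0.155, 0.151 and 0.148 at 100 nM and 0.137, 0.138 and 0.134 at 0 nM. Neither of these ratios overlapped between the doses. Being ratios within a library, they do not depend on how libraries were scaled. Krt7 over Krt19 overlapped, with 0.831 to 0.850 at 100 nM and 0.777 to 0.841 at 0 nM. Replicate 3 at 100 nM was the lowest of its group in Krt7, Krt8, Krt18 and Krt19, and yet stood with its group in Krt7 over Krt8 and in Krt19 over Krt18.

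**Figure D2:**
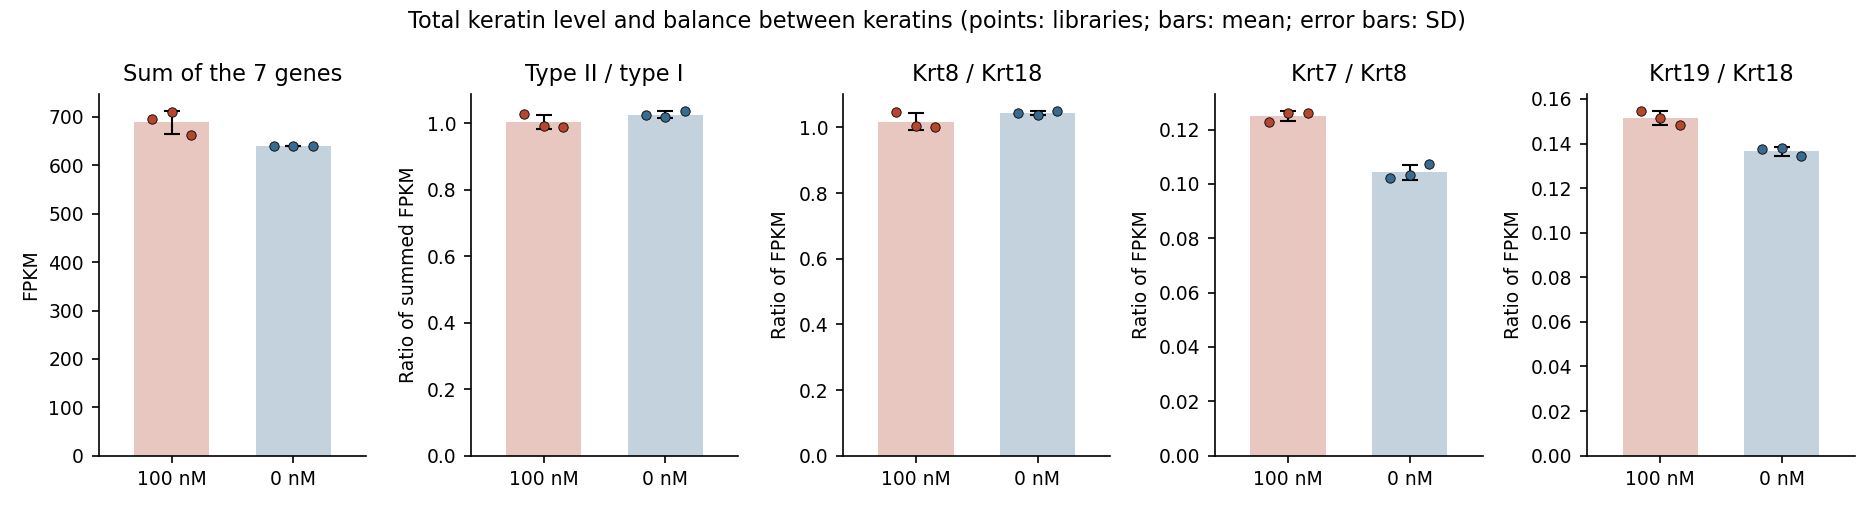
Summed FPKM of the 7 keratins and 4 ratios within each library, 100 nM PFOS on the left and 0 nM on the right of each panel; bars are means of 3, error bars SD, points libraries, axes from 0. The sum, Krt7 over Krt8 and Krt19 over Krt18 have no overlap between doses, and type II over type I and Krt8 over Krt18 stay near 1.

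How far reads could be shared with related genes was computed as the share of each gene's 31-base words found in transcripts of other genes. It was 36.0% for Krt8, of which a processed pseudogene on chromosome 7, Krt8-ps, held most (32.2%), 28.2% for Krt14, shared mainly with Krt16 and Krt17, 15.8% for Krt5, 11.4% for Krt18, 4.6% for Krt80, 3.0% for Krt7 and 0.4% for Krt19. Krt8-ps itself was listed at 3.86, 4.04 and 3.22 FPKM at 100 nM and 2.87, 2.45 and 3.37 FPKM at 0 nM. These groups overlapped, and with 67.9% of its words in Krt8 its value is uncertain, as is that of Krt14, while Krt16 and Krt17 were at most 0.11 and 0.35 FPKM in any library. The genes Krt7, Krt8 and Krt80 overlap annotated genes on the opposite strand (Gm671, Gm36026 and Gm35853), and Krt5 and Krt80 overlap microRNA genes. The libraries kept strand, but whether counting used it is not given in the sources used here.

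Beyond these 7, 17 keratin genes were listed, 11 on chromosome 11 and 6 on chromosome 15. All 17 stayed under 1 FPKM in every library and 0 passed the filter, so 0 were tested. The highest value was 0.62 FPKM, of Krt20, and Krt10, a keratin of stratified epidermis, had 0.29 to 0.56 FPKM at 100 nM and 0.38 to 0.41 FPKM at 0 nM. Their summed level was 0.73 to 1.48 FPKM per library. With no filter on low values 0 of the 17 passed in the limma test, where 204 of all genes did. The log2(FPKM + 1) scale understates change at such levels, so nothing is read from this 0. Of 16 listed genes of the cornified envelope, 11 were in the tables, 2 passed the filter, and 0 passed in limma (0 at an unadjusted p under 0.05). Sprr1a, a cornified envelope precursor, had 6.94, 5.79 and 0.08 FPKM at 100 nM and 5.79, 5.6 and 7.23 FPKM at 0 nM, so replicate 3 at 100 nM alone was near 0. S100a8, a calcium-binding protein induced in stressed epidermis, had 0, 1.62 and 1.91 FPKM at 100 nM and 2.14, 1.98 and 0.35 FPKM at 0 nM, which overlap.

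Of 12 plakin and desmosome plaque genes, 10 were tested. The list is not confined to the desmosome, since plectin anchors filaments at hemidesmosomes. At 100 nM 2 rose and 0 fell, where 1.69% of all genes rose and 2.46% fell. At an unadjusted p under 0.05 there were 5 higher and 3 lower, where 10.6% of all genes were higher and 10.2% lower. The median difference was 0.09, beside 0.005 over all genes tested. As this list and the others here were chosen with earlier results of these data known, nothing is read from such counts or medians. Dsp, desmoplakin, the plakin that binds keratins at the desmosome, had 9.29, 9.50 and 8.74 FPKM at 100 nM and 7.01, 7.20 and 7.37 FPKM at 0 nM. Its difference was 0.31 ± 0.04 (SE; limma adjusted p = 0.0125), of about the same size as that of Krt7. Jup, plakoglobin, which links desmosomal cadherins to desmoplakin, had 11.90, 12.93 and 12.01 FPKM at 100 nM and 10.38, 9.95 and 9.48 FPKM at 0 nM, with a difference of 0.28 ± 0.05 (SE; limma adjusted p = 0.0277). Neither gene overlapped between the doses. Plec, plectin, at 18.2 ± 0.619 FPKM at 100 nM and 17.4 ± 0.238 FPKM at 0 nM, and Pkp4, a plakophilin-related protein, at 17.7 ± 0.251 FPKM at 100 nM and 18.99 ± 0.426 FPKM at 0 nM (SD, n = 3 each), did not pass. Leaving out 1 library took the limma adjusted p of Jup to between 0.0562 and 0.0998, past the threshold in all 6 cases. For Dsp it reached 0.0623, past the threshold without replicate 1 or 2 of either group.

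The hemidesmosome joins keratins to the basement membrane through the integrin made of Itga6 and Itgb4, which binds laminins of the basement membrane. Values are given for single genes of this list, without a count over it. Itgb4 had 9.89, 10.02 and 9.20 FPKM at 100 nM and 7.63, 7.28 and 7.82 FPKM at 0 nM (difference 0.32 ± 0.04 SE, limma adjusted p = 0.0150). Its partner Itga6 went the other way, with 20.88, 19.48 and 19.33 FPKM at 100 nM and 22.44, 22.73 and 22.92 FPKM at 0 nM (difference -0.18 ± 0.03 SE, limma adjusted p = 0.0399). Lamb3, a laminin chain, had 8.96, 9.06 and 8.56 FPKM at 100 nM and 7.34, 7.24 and 7.53 FPKM at 0 nM (difference 0.24 ± 0.03 SE, limma adjusted p = 0.0186). The groups did not overlap for any of these 3. Lama3, another laminin chain, at 1.41 ± 0.148 FPKM at 100 nM and 1.18 ± 0.0815 FPKM at 0 nM, and the tetraspanin gene Cd151, at 42.4 ± 1.68 FPKM at 100 nM and 42.7 ± 1.04 FPKM at 0 nM (SD, n = 3 each), did not pass. Lamb3 and Itga6 no longer passed when any of 5 libraries was left out and Itgb4 when any of 4 was, with limma adjusted p of up to 0.081 for Lamb3, 0.130 for Itga6 and 0.0681 for Itgb4. Leaving out replicate 3 at 100 nM ended that of Itga6 (limma adjusted p = 0.0897) and not those of Itgb4 and Lamb3.

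Among other intermediate filament genes, 5 of 14 were tested and 1 fell, where 2.46% of all genes did. At an unadjusted p under 0.05 there were 1 higher and 2 lower, where 10.6% of all genes were higher and 10.2% lower. Vim, vimentin, the filament protein of mesenchymal cells, was above the keratin genes in level, with 514.11, 521.20 and 512.45 FPKM at 100 nM and 565.26, 560.03 and 563.75 FPKM at 0 nM. The groups did not overlap and the difference was -0.13 ± 0.02 (SE; limma adjusted p = 0.0121). It no longer passed without any 1 of the 0 nM libraries (limma adjusted p up to 0.0649). Summed keratin over Vim was 1.35, 1.36 and 1.29 at 100 nM and 1.13, 1.14 and 1.14 at 0 nM, with no overlap. The lamin genes Lmna, at 164.9 ± 2.58 FPKM at 100 nM and 165.1 ± 0.994 FPKM at 0 nM, and Lmnb1, at 41.3 ± 0.93 FPKM at 100 nM and 44.1 ± 1.32 FPKM at 0 nM (SD, n = 3 each), did not pass. The 14-3-3 genes Ywhae and Ywhaz, whose products bind phosphorylated keratins, did not pass (differences -0.02 ± 0.02 SE for each). Another 14-3-3 gene, Sfn, had 33.85, 34.25 and 31.63 FPKM at 100 nM and 28.49, 30.71 and 27.90 FPKM at 0 nM. Its groups did not overlap, and it did not pass either (difference 0.19 ± 0.05 SE, limma adjusted p = 0.0755).

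Among tested transcription factors that set epithelial or mesenchymal programmes 0 were called, where 4.15% of all genes were. With so few tested, nothing is read from this. Of 21 epithelial factors 13 were tested and 0 passed in limma, with a median difference of 0.07 and 8 of 13 above 0. At an unadjusted p under 0.05 there were 4, of which 3 were higher and 1 lower, where 20.7% of all genes had one. The factors with values below were picked for abundance and not for their difference. Cebpb had 40.03 ± 1.44 FPKM at 100 nM and 37.6 ± 1.95 FPKM at 0 nM, and Sp1, which binds GC boxes, 12.7 ± 0.186 FPKM at 100 nM and 13.03 ± 0.44 FPKM at 0 nM (SD, n = 3 each). Of 7 mesenchymal factors 3 were tested and 0 passed in limma (1 at an unadjusted p under 0.05, which was lower). Twist1 had 19.04 ± 0.912 FPKM at 100 nM and 20.8 ± 1.71 FPKM at 0 nM, and Snai1 7.25 ± 0.496 FPKM at 100 nM and 7.22 ± 0.262 FPKM at 0 nM (SD, n = 3 each). Their ranges overlapped.

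**Figure D3:**
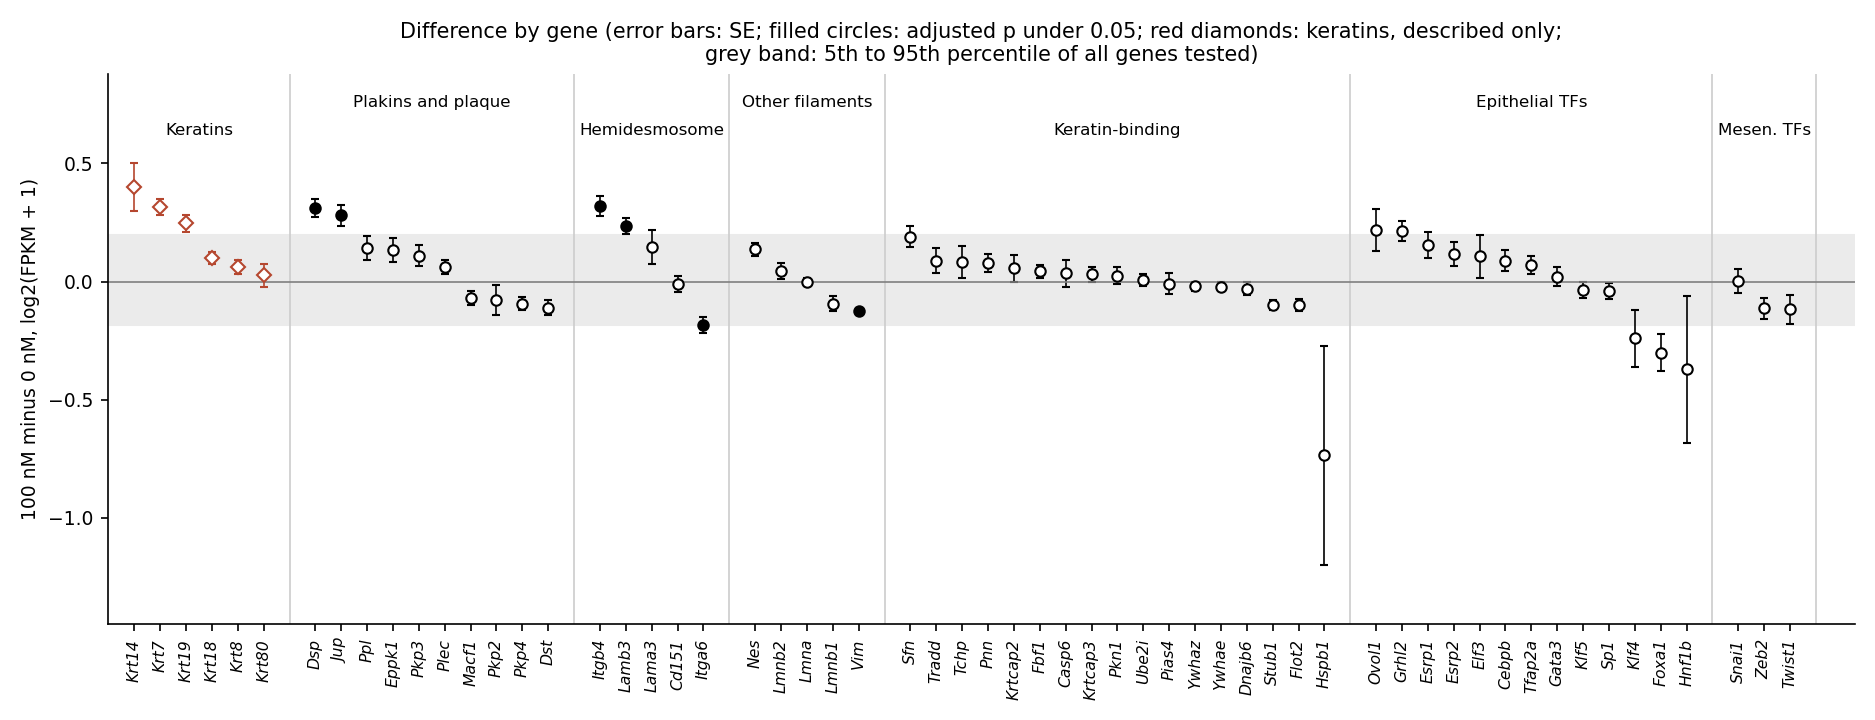
Difference between doses (100 nM minus 0 nM, log2(FPKM + 1), with SE) of each tested and reported gene of the keratins and of 6 lists around them; filled circles have a limma adjusted p under 0.05, and red diamonds are the keratins, which are described only. The grey band spans -0.18 to 0.20, the 5th to the 95th percentile of all genes tested; Dsp, Jup, Itgb4 and Lamb3 lie above it with filled circles.

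The genes around the keratins did not share their difference as a whole. Within 1 Mb of the keratins on chromosome 15, 33 other genes were tested, 17 of them above 0, with a median difference of 0.002 and 1 that rose. Within 1 Mb of Krt14 and Krt19 on chromosome 11, 33 were tested, 18 of them above 0, with a median of 0.01 and 1 that rose. Over all genes tested 52.6% were above 0, the median was 0.005, and 1.69% rose. The gene that rose on chromosome 15 was Rarg, a retinoic acid receptor, at 7.35 FPKM at 100 nM and 6.05 FPKM at 0 nM (difference 0.24 ± 0.05 SE, limma adjusted p = 0.0387). On chromosome 11 it was Jup, whose start lies 0.252 Mb from that of Krt19.

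**Figure D4:**
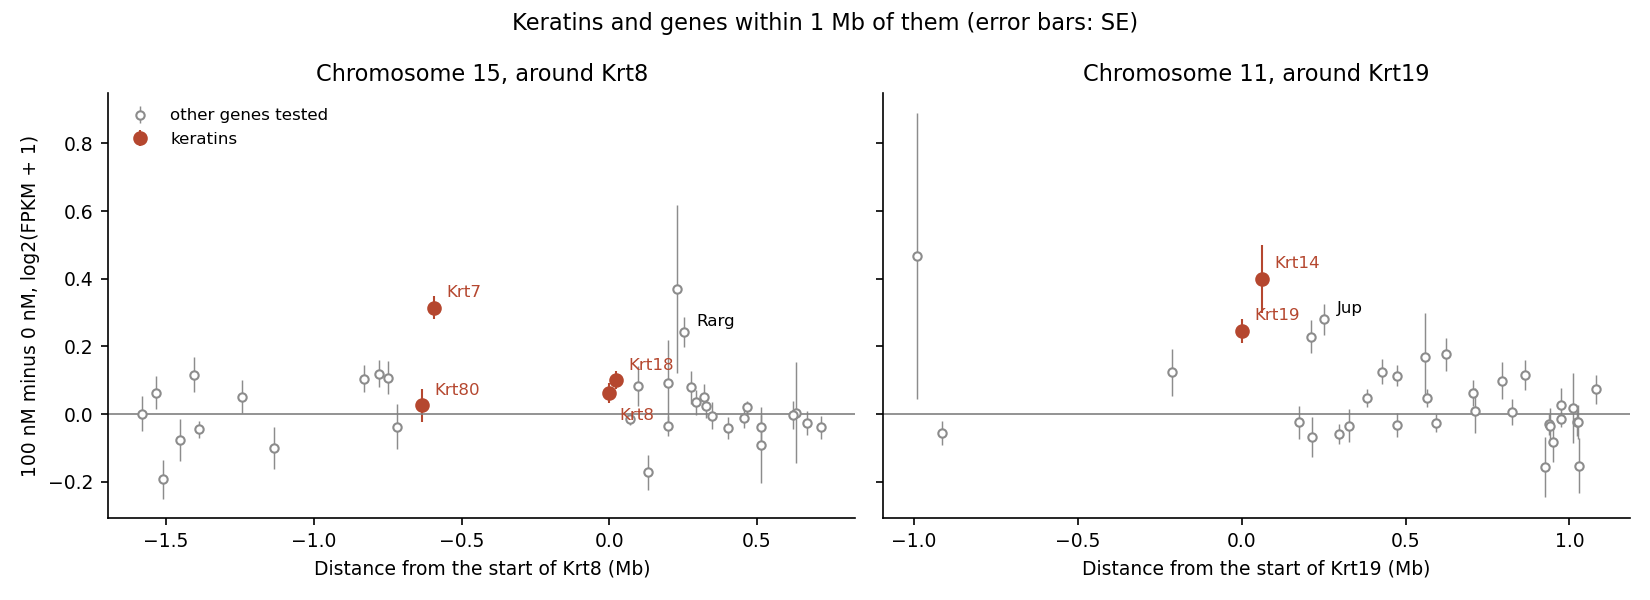
Difference between doses (100 nM minus 0 nM, log2(FPKM + 1), with SE) against distance in Mb from the start of Krt8 (left) and of Krt19 (right), for the tested keratins in red and the other genes within 1 Mb of a keratin as open grey circles. Most grey circles lie around 0, and Rarg and Jup are named because their limma adjusted p was under 0.05. Some unnamed circles lie farther from 0, with a larger SE and no call.

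By the root mean square distance between centred log2(FPKM + 1) profiles over the 6 libraries, the genes most like the summed keratins were, among 4392 genes averaging 10 FPKM or more, Huwe1, a ubiquitin ligase gene (0.008), Cstf2, a cleavage stimulation factor gene (0.014), and Card10 (0.015), where the median candidate lay at 0.074. Huwe1 had 21.14, 21.57 and 20.40 FPKM at 100 nM and 19.48, 19.64 and 19.53 FPKM at 0 nM. The profile has the highest value in replicate 2 at 100 nM, a lower one in replicate 3 and a flat 0 nM group. Nearest to Krt14, the keratin of the largest difference, were Cd109 (0.086), Ddit4 (0.102) and Hap1 (0.107), against a median of 0.228. These distances are large beside the profile's own size of 0.224, so none follows Krt14 closely. Nothing is read from these likenesses.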

How the data were processed

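Per the labels' protocols, poly(A) RNA of 6 libraries (3 at 100 nM and 3 at 0 nM PFOS) was strand-marked and read in pairs. The authors deposited FPKM per gene, to 2 decimals, 1 table per library, per the file headers. The tools listed in the submitters' processing notes are fastp, HISAT2 and StringTie, and the builds listed there are mm10 and GRCh38; the role of GRCh38 and tool versions are not stated. Of 28418 identifiers 28350 are in GENCODE M21 (GRCm38) and 25603 have the same coordinates there. Low values gave no read size: 20.5% of 13757 lay within 0.1 of a whole multiple of a gene's smallest value, where chance gives 20%, so depth is unknown and precision comes from replicates. Library sums were 306716 to 309381 FPKM.

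From the FPKM, limma-trend (limma 3.58.1, R 4.3.3) was run on log2(FPKM + 1) as a two-sided test of 100 nM minus 0 nM over 11741 genes averaging 1 FPKM or more, and genes were called at a Benjamini-Hochberg adjusted p under 0.05. This scale understates the change of low genes. The fit was tested on simulated data. Members and lists were chosen with earlier results of these data known. From the lists, 2 genes that passed the test are not reported here and are left out of the list tables and figures; no count over the hemidesmosome or keratin-binding list is given in the results for that reason. Named are all members, other keratins with a mean of at least 1 FPKM, called list members, the 2 most abundant uncalled members of each list, and the 3 genes of nearest profile. Krt8-ps, Krt10, Krt20, Rarg, Sfn, Grhl2, Esrp1, Foxa1, Klf4 and Zeb2 were added after their values were seen. Alternatives covered the pseudocount, the filter, quantile and median-of-ratios scaling, a block for replicate number, and fits that each left out 1 library. Sums, ratios and figures were made in Python 3.11.15 with numpy 2.4.6, pandas 2.3.3 and matplotlib 3.10.9.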

Additional observations from a re-analysis of the deposited data

How the results depend on the processing

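The summed keratin level (0.085 to 0.134 on the log2 scale without 1 library) kept its direction under every alternative run, as did the differences of Krt7, Krt8, Krt14, Krt18 and Krt19. Krt80 reversed without replicate 1 at 100 nM (-0.002; range without 1 library -0.002 to 0.060). With a pseudocount of 0.1 Krt14 moved to 0.73. The count of genes called, 487 (198 higher, 289 lower), was 204 (69 and 135) with no filter on low values, 58 (11 and 47) with the replicate block, and 122 to 289 (38 to 114 higher, 84 to 175 lower) when 1 library was left out. The calls among plakin and plaque genes numbered 1 with no filter, 0 with the replicate block and 0 to 1 without 1 library; among the hemidesmosome genes reported here 2, 0 and 0 to 2; among other intermediate filament genes 0, 0 and 0 to 1. Quantile normalization ended the call of Vim, while the count for its list stayed at 1, so another gene of the list passed there. No pairing of libraries by replicate number was seen: deviations of same-numbered libraries from their group means correlated across genes at -0.033, -0.053 and 0.007. Correlations near 0 cannot exclude a pairing. What a call lost under the block says of the effect is therefore not settled. No sequencing batch is given in the labels. Depth is unknown, so the precision of the low genes Krt5, Krt14 and Krt80 rests on 3 libraries a group.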
